A study of Mus musculus with 5 samples.

Results

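The genes described here are 8 markers of definitive endoderm, the germ layer that gives rise to the gut tube: Sox17, Foxa1, Foxa2, Foxa3, Trh, Tmprss2, Prdm1 and Cpm. They were taken by name from a deposited table of read counts for 49671 genes, in which each of the 8 had a single entry. RNA was sequenced from 5 mouse embryos at about E6.75, when the primitive streak forms, and every library came from the epiblast and visceral endoderm (VE) of a single embryo from which the extra-embryonic ectoderm (ExE) had been removed. The 2 SO+ embryos were labelled wild type and carried no Sox2Cre and 1 floxed beside 1 intact Oct4 allele (Sox2Cre-/-; Oct4 fl/+). The 3 SO− embryos carried Sox2Cre with 1 floxed and 1 null Oct4 allele (Sox2Cre+/-; Oct4 fl/-). All embryos were of mixed strain background and each held a floxed allele. Cre was driven by the Sox2 promoter, which acts mainly in the epiblast, so that the VE of SO− embryos was not the target of the deletion, and the Cre transgene itself was present in SO− embryos alone.

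Definitive endoderm arises from epiblast cells that pass through the anterior primitive streak and insert into the outer layer of the embryo, which until then consists of VE. Nodal signalling through Smad2 and Foxh1, together with Eomes, is known to start this programme, in which Foxa2 and then Sox17 are switched on. Several of its genes are not exclusive to it. Foxa2 and Sox17 are also expressed in VE, Foxa2 in the node and notochord as well, and Prdm1 in anterior VE and in primordial germ cells. As epiblast and VE were sequenced together, RNA of a gene made in both tissues cannot be assigned to either, and a change in the number of cells of a type cannot be told apart from a change in RNA per cell.

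Total counts were 27538119 and 27047148 in SO+ embryos 1 and 2 and between 1117566 and 4191498 in the SO− embryos, with SO− embryo 2 the shallowest. A count of 3 corresponded to 0.109 CPM (the count as a share of the library total, scaled to 1e6) in SO+ embryo 1 and to 2.68 CPM in SO− embryo 2. The deletion was visible in Pou5f1, which encodes Oct4: it had 920.2 and 435 CPM in SO+ embryos 1 and 2 and 27.8, 12.5 and 43.7 CPM in SO− embryos 1, 2 and 3, so that the SO− level was between 1.85% and 6.44% of the SO+ mean. The libraries of the genotypes differed in depth and carried different second indexes, so that neither depth nor index can be told apart from genotype. Genotypes were compared with edgeR's quasi-likelihood test on 12067 genes, with Benjamini-Hochberg adjustment over all of them, and each log2 fold change is SO− relative to SO+, followed by its standard error (SE).

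Of the 8 genes, Prdm1, Trh and Sox17 rose in SO− embryos, none fell, and 5 did not pass the threshold. All 8 had enough counts to be tested. The share called, 3 of 8, stands beside 2.35% of all genes tested, with 1.42% called higher and 0.928% called lower. DESeq2 called the same number of the 8 and 2.52% of the genes it tested. An unadjusted p under 0.05 was reached by 4 of the 8 and by 13.7% of all genes. CPM values of 4 of the 8 (Prdm1, Trh, Sox17 and Foxa1) were higher in every SO− embryo than in both SO+ embryos, which held for 13.9% of all genes tested. None of the 8 was lower in every SO− embryo, against 15.6% of all genes, and groups did not overlap in either direction for 29.5%. The median log2 fold change of the 8 was 0.79, and that of all genes tested was −0.0019. The 8 were chosen with earlier results of these data known, so these contrasts are a description and not a test.

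**Figure D1:**
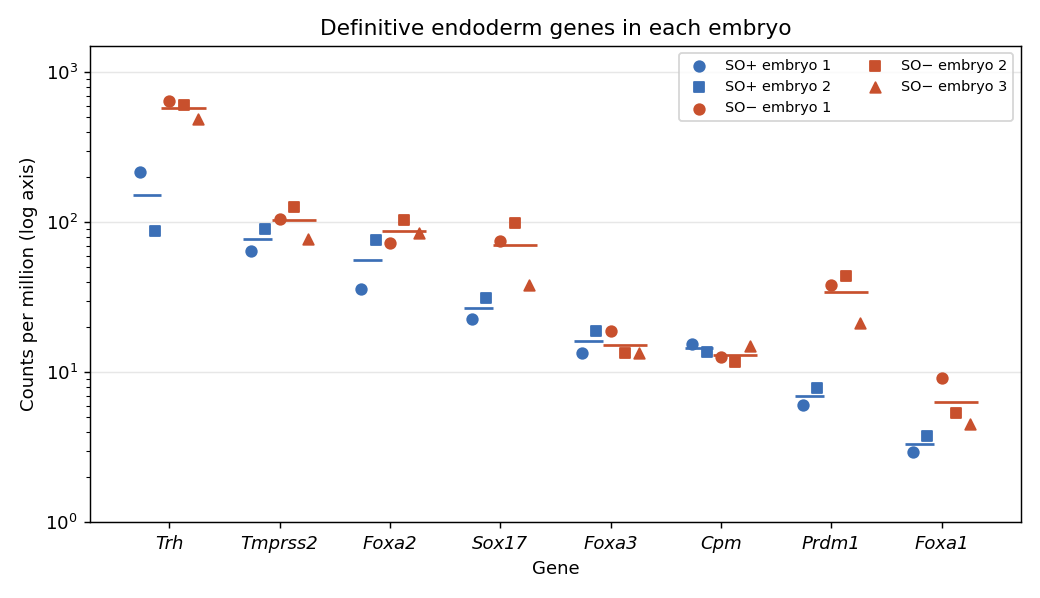
CPM on a log axis for each of the 8 genes, with 1 point per embryo (blue SO+, red SO−; the marker shape gives the embryo number) and a short line at each group mean. Points of SO+ and SO− embryos are apart for Trh, Sox17, Prdm1 and Foxa1 and mixed for Tmprss2, Foxa2, Foxa3 and Cpm.

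Prdm1 (ENSMUSG00000038151, chr10:44437177-44528501, minus strand of GRCm38) encodes the transcriptional repressor Blimp1. It had 6.06 and 7.84 CPM in SO+ embryos 1 and 2 and 38.5, 43.8 and 21.2 CPM in SO− embryos 1, 2 and 3. Every SO− embryo was well above both SO+ embryos, and SO− embryo 3 was the lowest of its group. Means were 6.95 ± 1.25 CPM in SO+ (SD, n = 2) and 34.5 ± 11.8 CPM in SO− (SD, n = 3), which gave a log2 fold change of 2.27 (SE 0.31, adjusted p = 0.00201 from edgeR). This was the highest fold change of the 8.

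Trh (ENSMUSG00000005892, chr6:92242061-92244650, minus strand) encodes the precursor of thyrotropin-releasing hormone and is a known marker of early definitive endoderm. It had 216 and 88.0 CPM in the SO+ libraries against 649, 602 and 486 CPM in the SO− libraries. Its highest value was 2.46 times its lowest within SO+ and 1.34 times within SO−, and the groups did not overlap. Means were 152 ± 90.7 CPM in SO+ (SD, n = 2) and 579 ± 84.2 CPM in SO− (SD, n = 3), and the log2 change was 1.93 (SE 0.28, adjusted p = 0.00251 from edgeR).

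Sox17 (ENSMUSG00000025902, chr1:4490931-4497354, minus strand) encodes an HMG-box factor required for definitive endoderm. It had 22.5 and 31.3 CPM in the SO+ libraries against 74.5, 99.3 and 37.9 CPM in the SO− libraries. SO− embryo 3 lay just above SO+ embryo 2, and their counting intervals of 32.3 to 44.3 CPM and 29.2 to 33.5 CPM (exact Poisson, 95%, counting error only) overlapped. Means were 26.9 ± 6.22 CPM in SO+ (SD, n = 2) and 70.6 ± 30.9 CPM in SO− (SD, n = 3), and the log2 fold change was 1.33 (SE 0.30, adjusted p = 0.0365 from edgeR). An antisense gene, Gm37587, shares 804 exon bases with Sox17, and whether strand was used in counting is not given in the sources used here. Gm37587 itself had at most 8 counts in any embryo.

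These genes did not pass when SO− embryo 1 or 2 was left out, which also lowered the number called over the whole table from 283 to 46 or 35. Without SO− embryo 1, log2 fold changes from edgeR were 2.13 for Prdm1 (adjusted p = 0.0648), 1.82 for Trh (adjusted p = 0.0762) and 1.24 for Sox17 (adjusted p = 0.322). Without SO− embryo 2 they were 2.11 (adjusted p = 0.0820), 1.91 (adjusted p = 0.137) and 1.07 (adjusted p = 0.323). All 3 kept a positive fold change in each of 13 alternatives, with a lowest log2 value of 2.08 for Prdm1 and 1.07 for Sox17. The size for Trh depended on the SO+ embryos, at 2.71 without SO+ embryo 1 and 1.42 without SO+ embryo 2. In these fits the spread of Trh within SO+ no longer enters, so a call from them is not informative. With the limma-voom test Sox17 had an adjusted p of 0.186, while Prdm1 (adjusted p = 0.0267) and Trh (adjusted p = 0.0452) passed.

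The FOXA family, forkhead pioneer factors of endoderm, did not pass the test in any of its 3 members. Foxa2 (ENSMUSG00000037025, chr2:148042877-148046969, minus strand) had 36.1 and 76.8 CPM in the SO+ libraries against 73.3, 104 and 84.2 CPM in the SO− libraries. SO+ embryo 2 lay inside the SO− range and SO+ embryo 1 well below it. The log2 fold change was 0.60 (SE 0.26, 95% confidence interval 0.04 to 1.17, unadjusted p = 0.0389, adjusted p = 0.322 from edgeR). The result turned on the SO+ embryos: it was 1.25 without SO+ embryo 2 (adjusted p = 2.83e-04 from edgeR, the lone SO+ embryo being assumed to vary like the SO− embryos) and 0.15 without SO+ embryo 1 (adjusted p = 0.945).

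Foxa1 (ENSMUSG00000035451, chr12:57540628-57546916, minus strand) had 2.94 and 3.73 CPM in the SO+ libraries against 9.19, 5.37 and 4.53 CPM in the SO− libraries. The groups did not overlap, but SO− embryo 2 rested on 6 counts, with a counting interval of 1.97 to 11.7 CPM (exact Poisson, 95%) that contains both SO+ values. The log2 fold change was 0.97 (SE 0.50, 95% confidence interval −0.10 to 2.04, adjusted p = 0.429 from edgeR).

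Foxa3 (ENSMUSG00000040891, chr7:19013284-19023538, minus strand) had 13.4 and 18.9 CPM in the SO+ libraries against 18.9, 13.4 and 13.4 CPM in the SO− libraries. The ranges of the groups coincided. Its log2 fold change was −0.05 (SE 0.29, 95% confidence interval −0.67 to 0.57, adjusted p = 0.973 from edgeR), and the sign was positive in 5 of 13 alternatives.

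Per kilobase of exon, Foxa2 held the larger part of FOXA transcripts in every embryo. Its share of the summed CPM per kilobase of Foxa1, Foxa2 and Foxa3 was 67.1% and 75.7% for SO+ and 72.0%, 84.2% and 81.8% for SO− embryos. The share of Foxa3 was 29.0% and 21.7% for SO+ and 21.6%, 12.7% and 15.1% for SO− embryos, so that the highest SO− value was close to the lower SO+ value. Foxa1 held between 2.62% and 6.43%. These shares were not tested.

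**Figure D2:**
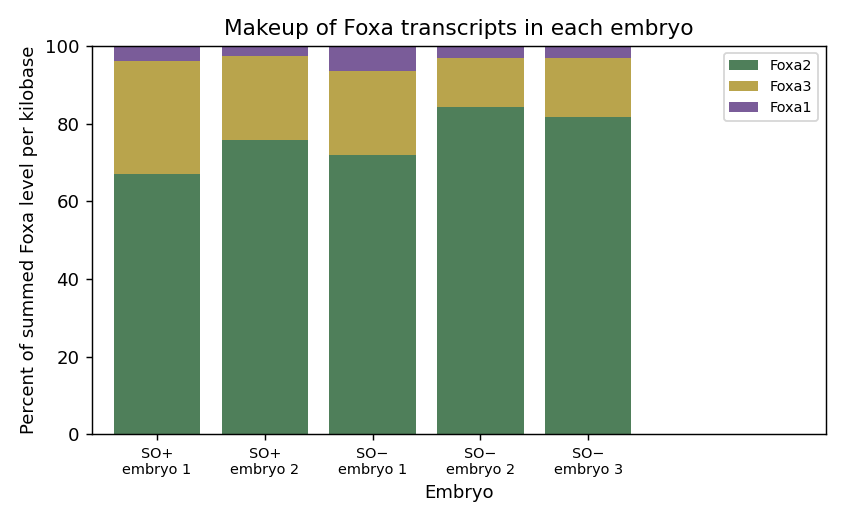
Stacked bars of the percent that Foxa2, Foxa3 and Foxa1 made up of their summed level per kilobase of exon, 1 bar per embryo. Foxa2 is the largest part in each of the 5 embryos, from 67.1% to 84.2%.

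The remaining genes encode cell-surface proteases and overlapped between genotypes. Tmprss2 (ENSMUSG00000000385, chr16:97564682-97611195, minus strand), a transmembrane serine protease, had 64.1 and 89.9 CPM in the SO+ libraries against 105, 127 and 77.3 CPM in the SO− libraries. SO− embryo 3 lay between the SO+ embryos. The log2 fold change was 0.39 (SE 0.20, 95% confidence interval −0.03 to 0.82, adjusted p = 0.415 from edgeR). Cpm (ENSMUSG00000020183, chr10:117629500-117687352, plus strand), which encodes carboxypeptidase M, had 15.4 and 13.7 CPM in the SO+ libraries against 12.6, 11.6 and 15.0 CPM in the SO− libraries. Its log2 fold change was −0.12 (SE 0.28, 95% confidence interval −0.72 to 0.48, adjusted p = 0.927 from edgeR). For both Cpm and Foxa3 the interval excludes a change of 1 on the log2 scale in either direction.

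**Figure D3:**
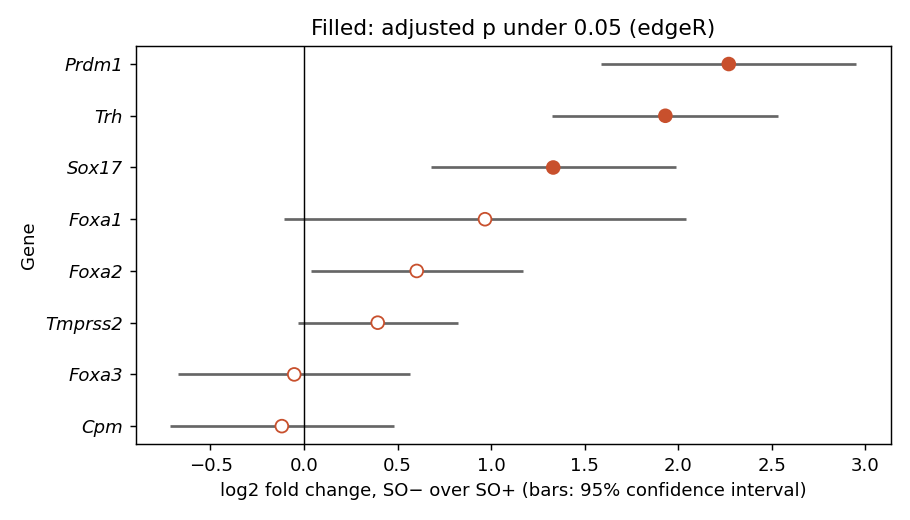
Log2 fold change of SO− over SO+ for each gene from edgeR (points) with its 95% confidence interval (bars); filled points have an adjusted p under 0.05 over all genes. Prdm1 at 2.27, Trh at 1.93 and Sox17 at 1.33 are filled, and the other 5 are open.

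On the scale of CPM per kilobase of exon, which allows levels of different genes to be compared, Trh was highest in both genotypes, with 110 ± 65.6 (SD, n = 2) in SO+ and 418 ± 60.8 (SD, n = 3) in SO− embryos. In SO+ embryos it was followed by Foxa2 (23.8 ± 12.2), Tmprss2 (10.5 ± 2.49), Foxa3 (7.92 ± 1.92), Sox17 (5.64 ± 1.30), Cpm (2.43 ± 0.199), Prdm1 (1.25 ± 0.225) and Foxa1 (1.00 ± 0.169). Neighbours in this order whose embryos overlapped were Tmprss2 and Foxa3, Foxa3 and Sox17, and Prdm1 and Foxa1. In SO− embryos Sox17 (14.8 ± 6.47) stood next to Foxa2 (36.8 ± 6.52) and above Tmprss2 (14.1 ± 3.42) and Foxa3 (7.47 ± 1.55), and Prdm1 (6.19 ± 2.12) above Cpm (2.19 ± 0.294) and Foxa1 (1.91 ± 0.746). Overlapping neighbours there were Sox17 and Tmprss2, Foxa3 and Prdm1, and Cpm and Foxa1.

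Sequences upstream of the start site were taken from RefSeq (GRCm38.p6), which held windows for 7 of the 8 genes, Foxa2 with 3 of them. The windows run from 250 bases before to 50 bases after a start site. The entry for Sox17 was missing. The 250 upstream bases are shown 5′ to 3′ on the strand of the gene for Prdm1 and Trh, which rose, and for Foxa1 and Foxa3, which did not pass. Capitals mark the forkhead letters TGTTTAC on either strand in Prdm1 and Foxa1, and TATAAA in Foxa3; Trh held no searched motif.
Prdm1 (chr10:44458749-44458998, minus strand): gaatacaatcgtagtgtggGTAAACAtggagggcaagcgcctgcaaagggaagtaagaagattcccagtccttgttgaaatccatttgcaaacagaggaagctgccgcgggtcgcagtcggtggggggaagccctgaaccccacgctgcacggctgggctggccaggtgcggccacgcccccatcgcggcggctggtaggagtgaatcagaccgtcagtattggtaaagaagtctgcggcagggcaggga
Trh (chr6:92244651-92244900, minus strand): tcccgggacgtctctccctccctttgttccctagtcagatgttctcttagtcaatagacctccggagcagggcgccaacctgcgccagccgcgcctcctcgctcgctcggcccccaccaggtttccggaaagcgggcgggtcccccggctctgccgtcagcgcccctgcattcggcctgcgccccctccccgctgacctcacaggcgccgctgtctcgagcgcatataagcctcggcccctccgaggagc
Foxa1 (chr12:57546112-57546361, minus strand): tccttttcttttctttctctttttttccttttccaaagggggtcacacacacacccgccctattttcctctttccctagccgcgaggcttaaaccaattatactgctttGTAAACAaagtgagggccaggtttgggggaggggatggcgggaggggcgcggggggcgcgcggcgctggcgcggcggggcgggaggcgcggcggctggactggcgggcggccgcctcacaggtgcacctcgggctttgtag
Foxa3 (chr7:19023540-19023789, minus strand): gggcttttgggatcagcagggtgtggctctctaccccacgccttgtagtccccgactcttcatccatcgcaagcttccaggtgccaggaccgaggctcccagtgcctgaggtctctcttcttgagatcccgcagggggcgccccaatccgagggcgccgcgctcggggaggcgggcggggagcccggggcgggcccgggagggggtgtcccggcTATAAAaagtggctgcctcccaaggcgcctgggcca

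The Prdm1 stretch lies within an intron of the GENCODE gene, downstream of a more distant start, and the Foxa1 stretch overlaps 10 exon bases of a longer transcript, whereas those of Trh and Foxa3 lie outside the gene. The forkhead letters were found in 2 of 9 windows of these genes and in 3.65% of 32851 windows of all genes. TATAAA was found in 2 of 9 and in 13.6% of all windows. The GATA letters AGATAA were found in 1 of 9 and in 11.2% of all windows. That 1 window precedes a Foxa2 start site within the GENCODE gene. The octamer ATGCAAAT, the letters known to be bound by Oct4 and other POU factors, was found in 0 of 9 and in 1.74% of all windows. Both strands were searched. A match describes letters in the sequence and is not evidence of binding.

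To set the genes beside the VE content of each sample, each CPM was divided by the summed CPM of 18 VE markers. That sum was 5595 and 5789.8 CPM in the SO+ libraries against 7904, 8055 and 5289 CPM in the SO− libraries, so that SO− embryos 1 and 2 were above and SO− embryo 3 below the SO+ embryos. Per 1000 CPM of VE markers, Prdm1 was at 1.08 and 1.35 for SO+ and at 4.87, 5.44 and 4.01 for SO− embryos. Trh was at 38.7 and 15.2 for SO+ and at 82.1, 74.8 and 91.8 for SO− embryos. Sox17 was at 4.02 and 5.41 for SO+ and at 9.43, 12.3 and 7.17 for SO− embryos. The groups did not overlap for these genes on this scale either.

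The differences on the log2 scale were 1.97 for Prdm1, 1.77 for Trh and 1.01 for Sox17 (exact permutation test over 10 splits of the embryos, two-sided p = 0.1 each, the smallest that 2 embryos against 3 allow). Foxa1 was also higher in every SO− embryo, with 0.526 and 0.645 against 1.16, 0.667 and 0.857 per 1000 (difference 0.58, exact permutation p = 0.2). Foxa2 (0.42, exact permutation p = 0.5), Tmprss2 (0.12, exact permutation p = 0.6), Foxa3 (−0.37, exact permutation p = 0.4) and Cpm (−0.45, exact permutation p = 0.4) overlapped between genotypes. Without SO+ embryo 1 the differences of Foxa2 (−0.098) and Tmprss2 (−0.095) changed sign, and that of Trh was 2.44, against 1.09 without SO+ embryo 2.

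**Figure D4:**
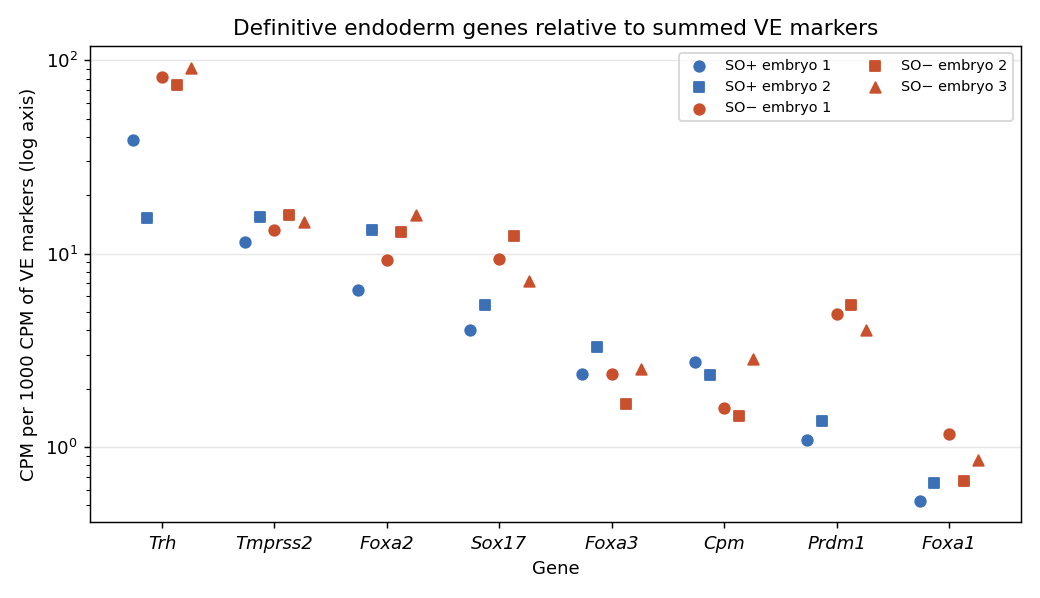
CPM of each gene per 1000 CPM of summed VE markers, on a log axis, with 1 point per embryo (blue SO+, red SO−). SO− points are above SO+ points for Trh, Sox17, Prdm1 and Foxa1, with Prdm1 between 4.01 and 5.44 in SO− and at 1.08 and 1.35 in SO+ embryos.

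Among the 18 VE markers themselves, 17 were tested, 15 had a log2 fold change above 0 and 1 passed. This was Spink1, a secreted protease inhibitor, which rose from 258 and 241 CPM to 374, 414 and 371 CPM, a log2 fold change of 0.63 (adjusted p = 0.00580 from edgeR). The median of the tested VE markers was 0.37, and 6 of the 17 had an unadjusted p under 0.05 in edgeR, against 13.7% of all genes tested. The number that passed was 6 without SO− embryo 3, 4 without SO+ embryo 2, and 0 without SO− embryo 1 or 2. Defining VE transcripts were abundant in every embryo, such as Afp at 567 to 670 CPM. The part of VE content in the rises of Prdm1, Trh and Sox17 was not tested beyond the ratios above.

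Of 9 other markers of definitive endoderm, 6 were tested and 1 passed. Cer1, a secreted antagonist of Nodal and BMP made by both anterior VE and definitive endoderm, had 78.3 and 82.4 CPM in the SO+ libraries against 139, 129 and 119 CPM in the SO− libraries. Its log2 fold change was 0.69 (adjusted p = 0.0126 from edgeR), and it did not pass without SO+ embryo 1, SO− embryo 1 or SO− embryo 2 (adjusted p up to 0.174). All 6 had a log2 fold change above 0, with a median of 0.18. Nepn, Pyy and Shh, known from later gut endoderm, were at or near 0, with no count of Pyy in any embryo and at most 6 of Nepn and 5 of Shh.

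Of 13 regulators of endoderm formation, such as Nodal, Eomes and Gata6, none passed in edgeR, DESeq2 or limma-voom, and 2 had an unadjusted p under 0.05 in edgeR. Their median log2 fold change was 0.11, with 8 of 13 above 0. The number that passed was 4 without SO+ embryo 2 and 1 without SO+ embryo 1. Gata6, Lhx1 and Gsc, chosen after their values were seen, were like Foxa2 in that SO+ embryo 1 was the lowest of the 5 embryos. Gata6 had 15.5 and 47.7 CPM in the SO+ libraries against 57.3, 80.5 and 39.1 CPM in the SO− libraries. Lhx1 had 41.9 and 114 CPM in the SO+ libraries against 105, 127 and 95.2 CPM in the SO− libraries.

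**Figure D5:**
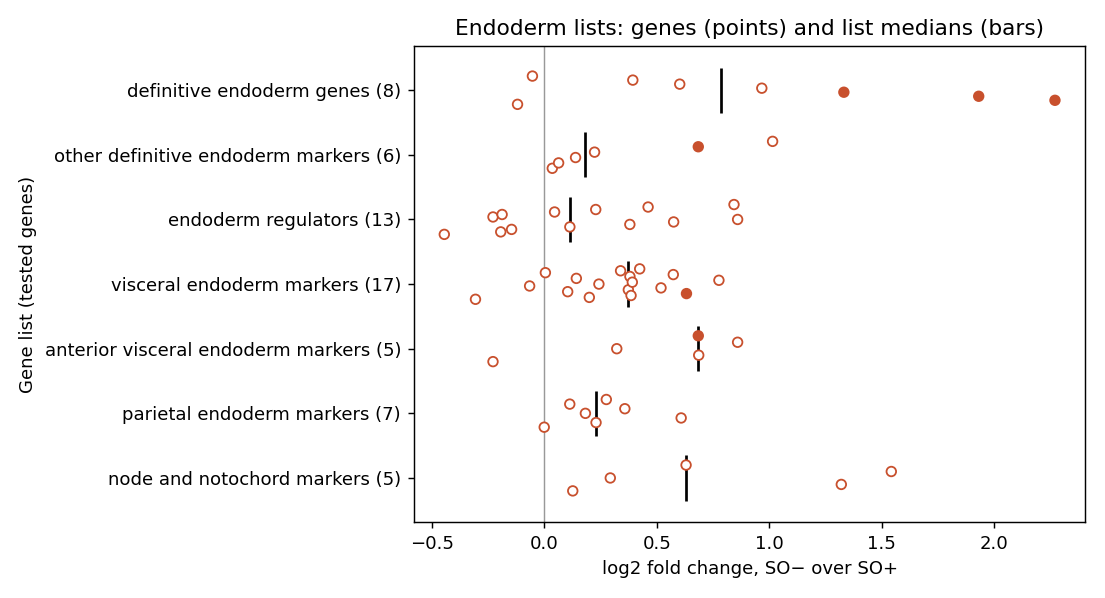
Log2 fold change of SO− over SO+ for every tested gene of 7 endoderm and axial lists (points; filled where the adjusted p is under 0.05 over all genes), with the median of each list as a bar and the number of tested genes in brackets. The 8 definitive endoderm genes have a median of 0.79, the VE markers 0.37 and the endoderm regulators 0.11.

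Other tissues in which these genes are known were described in the same way. Of 5 anterior VE markers, which share genes with the lists above, Cer1 alone passed in edgeR, where DESeq2 called 2 and limma-voom 1. The median log2 fold change of the 5 was 0.69, and 3 had an unadjusted p under 0.05 in edgeR. None of 5 tested node and notochord markers passed in edgeR, DESeq2 or limma-voom, although 2 had an unadjusted p under 0.05 in edgeR and the median was 0.63. None of 7 tested markers of parietal endoderm passed in these tools, with 2 at an unadjusted p under 0.05 in edgeR and a median of 0.23. Of 5 tested markers of primordial germ cells, the lineage in which Prdm1 also acts, Ifitm3 passed, with 11.9 and 19.9 CPM in the SO+ libraries against 54.2, 63.5 and 31.0 CPM in the SO− libraries (log2 fold change 1.60, adjusted p = 0.0134 from edgeR). Ifitm3 did not pass without SO− embryo 1 or SO− embryo 2 (adjusted p up to 0.215), nor in limma-voom (adjusted p = 0.1003). Kit (log2 fold change 0.60), Tfap2c (0.20) and Dnd1 (−0.09) did not pass in edgeR. The median of the tested germ cell markers was 0.60, with 4 above 0 and 1 below. Prdm14, chosen after its values were seen, had 0 and 0.739 CPM in the SO+ libraries against 4.35, 2.68 and 1.91 CPM in the SO− libraries (adjusted p = 0.227 from edgeR). These values rested on 0 and 20 counts in SO+ and on 18, 3 and 8 counts in SO− embryos. Nanos3 had at most 2 counts in any embryo.

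Markers of tissue outside the endoderm are given beside these genes. Of 8 epiblast markers, Utf1 (log2 fold change −2.08, adjusted p = 4.06e-04 from edgeR) and Dnmt3b (−0.99, adjusted p = 0.00392) fell. In this list 3 of the 8 had a log2 fold change above 0 and 5 below, with a median of −0.32. An unadjusted p under 0.05 in edgeR was reached by 5 of the 8, against 13.7% of all genes tested. In every SO− embryo 4 of the 8 were lower (15.6% of all genes) and 1 was higher (13.9%). The summed CPM of the 8 was 5592 and 4803 for SO+ and 2831, 2502 and 3531 for SO− embryos. Dnmt3b was the largest part of that sum in each embryo. Dnmt3b did not pass without SO− embryo 1 or SO− embryo 2 (adjusted p up to 0.122). The summed CPM of 8 ExE markers was 24.6 and 27.95 for SO+ and 43.8, 57.3 and 35.8 for SO− embryos, with Elf5 at no more than 2.62 CPM. Of 5 maternal and blood markers 3 had no counts, and their sum was at most 4.88 CPM. The part of ExE in the rises of Prdm1, Trh and Sox17 was not tested.

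Among themselves, the 8 genes followed different courses over the 5 embryos. Profiles of mean-centred log2 CPM were compared by their root mean square difference. This measure is also small for 2 genes that both vary little, whether or not they move together. The closest pairs were Foxa2 with Tmprss2 and Foxa3 with Cpm, both at 0.32, and the most distant was Prdm1 with Cpm at 1.27. Prdm1 was 0.47 from Sox17 and 0.58 from Trh. Trh differed from both in having its lowest value in SO+ embryo 2 (−1.88) and not in SO+ embryo 1 (−0.59).

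Among 9305 genes whose log2 CPM averaged 3 or more, the nearest to Prdm1 over the 5 embryos were Tmem119 (root mean square difference 0.11), Parp12 (0.14) and Greb1l (0.30). Nearest to Sox17 were Piezo2 (0.15), Zc3hav1 (0.17) and Crb2 (0.17), and nearest to Foxa2 were N4bp2 (0.13), Tmem106b (0.13) and D6Wsu163e (0.14). Trh had no near neighbour, as Trim67 (0.38), Kdm5d (0.40) and Tdrd5 (0.44) were the closest. Selenos (0.01) was nearest to Foxa3, Nck1 (0.04) to Tmprss2 and Mzt2 (0.03) to Cpm, and Foxa1, whose log2 CPM averaged below 3, was not compared. These likenesses describe 5 libraries and carry no test.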

How the data were processed

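RNA of 2 SO+ and 3 SO− embryos was analysed, grouped by the titles of the samples; embryos are separate animals. The authors amplified RNA with SmartSeq2, trimmed reads by cutadapt, mapped them by STAR to the mouse build GRCm38 and deposited whole-number counts per Ensembl gene from HTSeq, without normalization or molecular identifiers. Strand and duplicate settings are not given in the sources used here, and counting intervals cover counting error only.

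The members and gene lists were chosen with earlier results of these data known, the lists from general knowledge. Tests used edgeR 4.0.16 in R 4.3.3 (TMM scaling, filterByExpr, quasi-likelihood, genotype as the only term) over 12067 genes, with an adjusted p threshold of 0.05. SE is the absolute log2 fold change over the square root of F, and intervals use the degrees of freedom of each gene. Alternatives were DESeq2 1.42.0, limma-voom (limma 3.58.1), 3 other scalings, no filter, the replicate number as a block, SO+ counts thinned to the mean SO− total in 1 draw, and each embryo left out. The scripts were tested on simulated data. Named genes are the 8 members, list genes with an adjusted p under 0.05, Pou5f1, and the 3 nearest profiles of each member whose log2 CPM averages 3 or more (nearest 1 given for Foxa3, Tmprss2 and Cpm); others were chosen after their values were seen, and some list genes are not reported here. Coordinates and exon lengths are from GENCODE M21 (GRCm38), promoters from RefSeq.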

Additional observations from a re-analysis of the deposited data

How the results depend on the processing

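Depth limits the SO− side, where Foxa1, Foxa3 and Cpm rested on 6, 15 and 13 counts in SO− embryo 2. Over the whole table edgeR called 283 genes. In their own totals, limma-voom called 91, the fit with the replicate block 929, and the fits with an embryo left out between 35 and 573. The number of the 8 members called ranged from 0 to 4 with an embryo left out, that of endoderm regulators from 0 to 4, of other definitive endoderm markers from 0 to 1 and of VE markers from 0 to 6. Fits with 1 SO+ embryo left take their spread from the SO− embryos alone, so their numbers called are not informative. Sox17 was at 1.14 with limma-voom without passing. With an embryo left out, log2 fold changes ranged from 1.07 to 1.65 for Sox17, 1.42 to 2.71 for Trh, 2.08 to 2.54 for Prdm1, 0.15 to 1.25 for Foxa2 and −0.29 to 0.22 for Foxa3. Foxa3 was positive without SO+ embryo 2 (0.22), SO− embryo 2 (0.0056) or SO− embryo 3 (0.06), with SO+ thinned (0.11) and with the replicate block (0.10).

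The labels do not say whether same-numbered embryos are related. Deviations of same-numbered embryos correlated at 0.046 and 0.18. As the deviations of the 2 SO+ embryos mirror each other, these values cannot show whether embryos were paired. With the replicate block, which leaves 1 residual degree of freedom, 5 members were called, Foxa2 (0.75) and Tmprss2 (0.62) being added, beside 5 regulators, 2 other definitive endoderm markers and 10 VE markers. Differences relative to VE moved by at most 1 SD (the larger of the SDs of the genotypes) with the mean log2(CPM + 1) of the VE markers in place of their sum. With an embryo left out, groups this small cannot move by more than 1 SD, so that bound says nothing there. Without SO+ embryo 1 the differences of Foxa2 (−0.098) and Tmprss2 (−0.095) changed sign. Without SO+ embryo 2 that of Foxa2 was 0.94. The difference of Trh was 2.44 without SO+ embryo 1 and 1.09 without SO+ embryo 2. DESeq2 called 380 genes and the same number of members, 3. The cause of these changes was not tested.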
